A study of Mus musculus with 4 samples.

Results

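Hepatokines are proteins that hepatocytes release into blood and that act on metabolism in the liver or in other organs. The expression of 9 genes for such proteins was examined: Igfbp1, Igfbp2, Angptl8, Gdf15, Lect2, Ahsg, Fetub, Rbp4 and Inhbe. They were chosen by name from the 25655 genes of the deposited count table, with earlier results of these data known. All 9 were found there and passed the filter on low counts that left 12967 genes for testing. The libraries were prepared from liver of HFD-WT mice (ADAR2+/+/GluR-BR/R) and HFD-KO mice (ADAR2-/-/GluR-BR/R), 2 libraries per group. Both groups carried the edited form of the glutamate receptor subunit GluR-B, were on a B6129S background from intercrosses of heterozygous animals, and received the high-fat diet (HFD) for 12 weeks from 5 weeks of age, until 17 weeks. The deletion is present in every tissue, so liver is not the only organ that lacks ADAR2, an enzyme that edits adenosine to inosine in RNA. The study continued with male mice, and the labels of these libraries do not give the sex. Whether the mice were fed or fasted when liver was taken for RNA is not given in the sources used here. The study names more mice per group for its enrichment analysis of these livers than there are libraries here, and whether a library is 1 mouse or a pool is not given either, so p-values measure the spread between libraries, which may be technical.

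Several of these proteins respond to nutrients and insulin. Igfbp1 and Igfbp2 encode binding proteins that hold insulin-like growth factors in the circulation, and Igfbp1 transcription is classically repressed by insulin and raised by fasting. Angptl8, which insulin and feeding induce, takes part in the inhibition of lipoprotein lipase. Ahsg and Fetub encode fetuin-A and fetuin-B, secreted relatives of the cystatins that have been tied to insulin resistance. Rbp4 carries retinol in plasma, Lect2 is a chemotactic protein of hepatocytes, Gdf15 is a stress-induced hormone that acts on appetite through a brainstem receptor, and Inhbe encodes activin E, which acts on adipose tissue.

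The windows before the transcription starts of the 3 members with the largest fitted fold change are shown, because transcription of these genes is known to respond to insulin or nutrients. They are the 250 bases before the start as RefSeq gives it on GRCm38.p6, all on the plus strand, and all 9 members had at least 1 such window, 13 in all. Matches to 5 short motifs are in capitals.
Igfbp1, chr11:7197537-7197786: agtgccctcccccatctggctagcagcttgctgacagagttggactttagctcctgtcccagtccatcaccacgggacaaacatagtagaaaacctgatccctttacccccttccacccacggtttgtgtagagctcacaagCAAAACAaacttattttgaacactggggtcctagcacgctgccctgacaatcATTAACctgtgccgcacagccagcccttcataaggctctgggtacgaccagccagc
Igfbp2, the first of its windows, chr1:72824230-72824479: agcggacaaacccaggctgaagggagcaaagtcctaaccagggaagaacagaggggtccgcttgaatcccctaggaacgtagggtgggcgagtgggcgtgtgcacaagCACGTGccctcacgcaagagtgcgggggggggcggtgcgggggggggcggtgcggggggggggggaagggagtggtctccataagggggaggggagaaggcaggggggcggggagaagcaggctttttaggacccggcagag
Angptl8, chr9:21835260-21835509: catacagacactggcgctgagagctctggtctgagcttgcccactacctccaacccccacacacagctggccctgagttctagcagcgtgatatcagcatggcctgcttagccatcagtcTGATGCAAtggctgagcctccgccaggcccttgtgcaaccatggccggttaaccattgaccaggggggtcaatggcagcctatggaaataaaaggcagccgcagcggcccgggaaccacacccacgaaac

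The motifs were searched on both strands: GTAAACA (forkhead factors such as FOXO1), CAAAACA (part of the insulin response element described for Igfbp1), CACGTG (E box), TGATGNAA (ATF4 with C/EBP) and GTTAAT (an HNF1 half-site). The Igfbp1 window held CAAAACA between 108 and 102 bases before the start, and GTTAAT on the opposite strand between 56 and 51 bases before it. The printed Igfbp2 window held CACGTG, and the Angptl8 window held TGATGNAA. Among all 13 windows of the members, GTAAACA occurred in 2 (Fetub and Rbp4), CAAAACA in 1 (Igfbp1), CACGTG in 2 (Igfbp2 and Gdf15), TGATGNAA in 3 (Angptl8, Rbp4 and Inhbe) and GTTAAT in 3 (Igfbp1, Gdf15 and Lect2). Of the 32851 windows of that length in the RefSeq table, 3.17% held GTAAACA, 5.56% CAAAACA, 6.02% CACGTG, 3.45% TGATGNAA and 6.43% GTTAAT. The marked matches do not overlap each other. These matches are a description of letters and not of factor binding.

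Total counts per library were between 24480798 and 28691330, and 3 counts correspond to between 0.104 and 0.126 CPM (counts scaled to an equal library size), a limit that covers counting error only. Adarb1, the targeted gene, had 15.7 and 19.8 CPM in the HFD-WT libraries and 6.23 and 9.55 CPM in the HFD-KO libraries (log2 fold change -1.17, standard error (SE) 0.20, adjusted p = 0.159, edgeR). Both HFD-KO values lay below both HFD-WT values, and counts over the whole gene do not show whether the remaining reads come from outside the deleted part. The HFD-KO libraries stood further from each other than the HFD-WT libraries did. Of the genes tested, 429 (3.31%) differed at least 2-fold between the HFD-KO libraries and 200 (1.54%) between the HFD-WT libraries. All 8 hepatocyte markers were detected, with a summed level of 98383 CPM in HFD-KO replicate 2 and between 83579 and 84882 CPM in the other 3 libraries. That gap was in Alb alone (66104 CPM against 52676 to 54900.2 CPM), and the other 7 summed to 32279 CPM in HFD-KO replicate 2 and 32206 CPM in HFD-KO replicate 1, against 30682 and 28678 CPM in HFD-WT. The summed level of 5 erythroid markers was highest in HFD-KO replicate 2 (1146 CPM against 600.5 to 811 CPM), and that of 6 B and plasma cell markers in HFD-KO replicate 1 (122 CPM against 15.2 to 18.1 CPM). The 9 macrophage markers summed to 287 and 273 CPM with HFD-KO, below the 359 and 448 CPM of HFD-WT, and 8 of the 9 had a negative log2 fold change. The 7 stellate cell markers (276 and 211 CPM, against 304 and 340 CPM in HFD-WT) also summed to less in HFD-KO. Of the 5 cholangiocyte markers, Spp1 was lower (53.8 and 42.8 CPM, against 64.3 and 83.9 CPM) and the other 4 together overlapped (5.66 and 7.20 CPM, against 7.25 and 6.54 CPM), while the 6 endothelial markers summed to between 231 and 258 CPM in every library. Neutrophil, adipocyte and exocrine pancreas markers summed to at most 7.70 CPM in any library, with Lep and Prss2 at 0 in all. The part of these differences in the results on the 9 genes was not tested, and in bulk liver a change in the number of cells cannot be told apart from a change in the RNA of each cell.

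The question put to the counts was whether genes for secreted metabolic regulators are expressed at another level when ADAR2 is absent. Igfbp1, Igfbp2, Angptl8 and Fetub had fitted fold changes of 3.30, 1.96, 1.78 and 1.39 between the groups. Each had an unadjusted p under 0.05 by edgeR. Both HFD-KO libraries lay above both HFD-WT libraries for these 4, and also for Gdf15, Ahsg and Rbp4. Of all genes tested, 20.5% did so. After Benjamini-Hochberg adjustment over all 12967 genes, 0 of the 9 members had an adjusted p under 0.05 by edgeR, against 0.0771% of all genes tested (0.054% higher and 0.0231% lower). DESeq2's Wald test called 1 member (Angptl8) and 115 of the same 12967 genes, and limma-voom called 0 members and 8 genes. At an unadjusted p under 0.05, 4 of the 9 members were higher and 0 were lower, where 8.98% of all genes tested passed, 4.25% higher and 4.73% lower. Scaling by library size alone also gave a count of 4 members, while the split over all genes changed from 551 higher and 613 lower to 346 higher and 894 lower. The median log2 fold change was 0.48 over the 9 members and 0.0068 over all genes tested. The choice of members knew earlier results of these data, so these comparisons with all genes are a description and not a test. With 2 libraries against 2, the smallest exact two-sided permutation p for a single gene is 0.333, so each p rests on a spread that edgeR shares across genes.

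**Figure D1:**
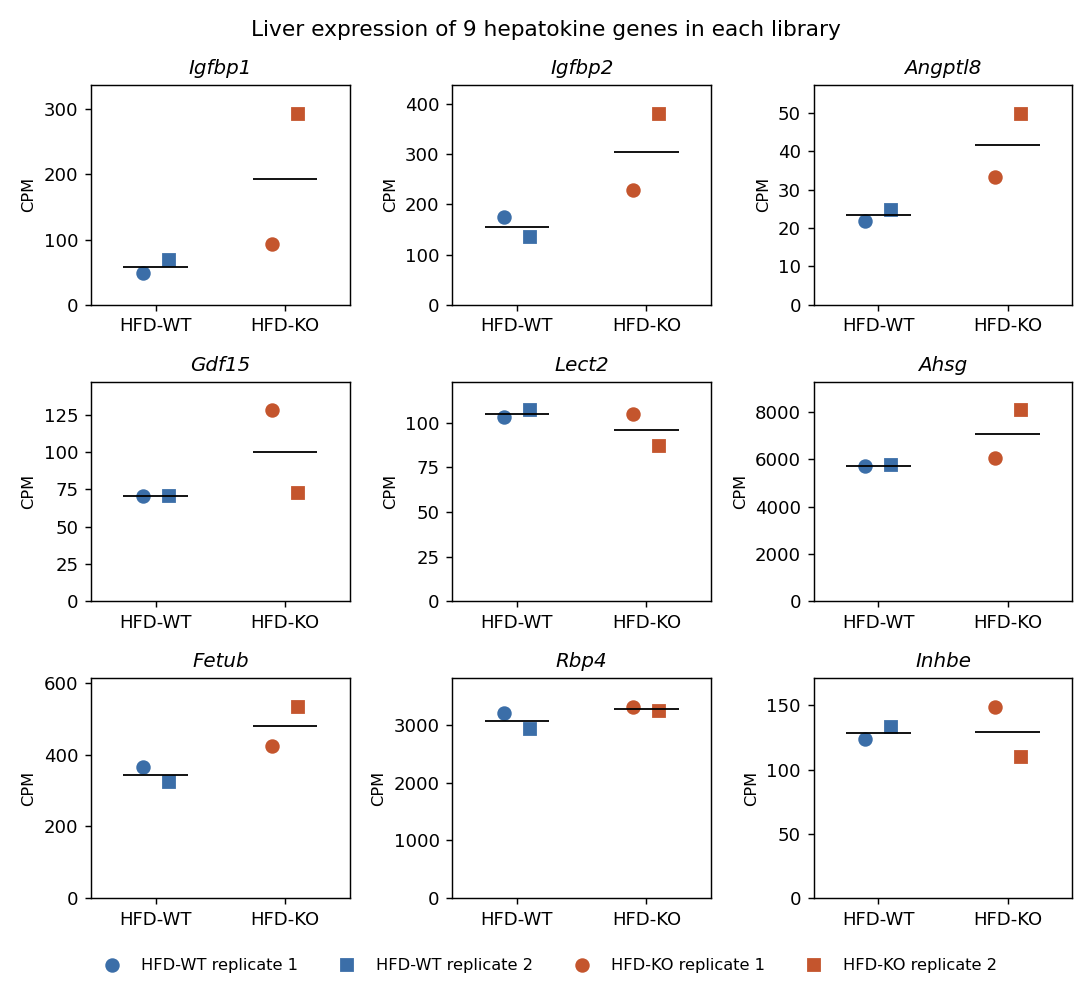
Expression of each of the 9 genes in CPM (vertical axes, each from 0) in the 2 HFD-WT and 2 HFD-KO libraries; each point is a library and each line the mean of a group. Both HFD-KO points lie above both HFD-WT points for Igfbp1 (93.6 and 293 CPM against 48.3 and 68.9 CPM), Igfbp2, Angptl8, Gdf15, Ahsg, Fetub and Rbp4. Of all genes tested, 20.5% do so. Lect2 and Inhbe overlap.

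Igfbp1 was measured at 48.3 and 68.9 CPM in the HFD-WT pair against 93.6 and 293 CPM in the HFD-KO pair, from 1399, 1894, 2463 and 6994 reads. HFD-KO replicate 2 was thus far above the other 3 libraries, and HFD-KO replicate 1 lay closer to HFD-WT than to its own replicate. Against the HFD-WT mean the HFD-KO libraries were 1.60- and 5.00-fold higher. The log2 fold change was 1.72 (SE 0.46, 95% interval 0.64 to 2.80, adjusted p = 0.358, edgeR), which made Igfbp1 the 240th of the genes tested by p. It was 0.68 without HFD-KO replicate 2 and 2.32 without HFD-KO replicate 1. The gene is ENSMUSG00000020429, on chromosome 11 from 7147782 to 7152546 of GRCm39, with Igfbp3 3539 bases away.

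Igfbp2, like Igfbp1, was highest in HFD-KO replicate 2 and next in HFD-KO replicate 1. Its level was 176 and 135 CPM in the HFD-WT pair against 228 and 380.5 CPM in the HFD-KO pair, without overlap. The HFD-KO libraries were 1.47- and 2.45-fold above the HFD-WT mean. The log2 fold change was 0.97 (SE 0.23, 95% interval 0.43 to 1.52, adjusted p = 0.277, edgeR), and 0.56 without HFD-KO replicate 2. Igfbp2 is ENSMUSG00000039323 on chromosome 1 from 72863662 to 72891633, and its neighbour Igfbp5, 5457 bases away, had 21.4 and 13.3 CPM in the HFD-WT pair against 23.7 and 16.6 CPM in the HFD-KO pair, groups that overlapped.

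Angptl8 had the smallest p of the members. Its level was 21.9 and 24.8 CPM in the HFD-WT pair against 33.3 and 49.9 CPM in the HFD-KO pair. The groups did not overlap, and the HFD-KO libraries were 1.43- and 2.14-fold above the HFD-WT mean. The log2 fold change was 0.83 (SE 0.18, 95% interval 0.41 to 1.25, adjusted p = 0.233, edgeR) and was 0.51 without HFD-KO replicate 2. The adjusted p was 0.0053 with DESeq2's Wald test, and over the alternatives it ranged from 1.17e-08 without HFD-KO replicate 1 to 0.9998 without HFD-WT replicate 2. Angptl8 (ENSMUSG00000047822, chromosome 9 from 21746806 to 21748643) lies within the span of Dock6 on the opposite strand. Dock6 had 1964 reads in the 4 libraries together, Angptl8 between 633 and 1191 reads in each, and whether reads were counted by strand is not given in the sources used here.

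Slc30a10 and Slc22a7 were among the 3 genes whose values over the 4 libraries came closest to Angptl8, by the distance between log2 CPM values centred on the mean of each gene, among 7621 genes with a mean of at least 10 CPM. Slc30a10, a manganese exporter gene, had 17.2, 18.3, 26.2 and 37.6 CPM in HFD-WT replicates 1 and 2 and HFD-KO replicates 1 and 2, a distance of 0.079. Slc22a7, an organic anion transporter gene, had 8.32, 9.60, 12.1 and 20.5 CPM in the same order, a distance of 0.13. Both were highest in HFD-KO replicate 2, as Angptl8 was. With 4 libraries this is a description of these samples only.

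Fetub and Ahsg lie 18884 bases apart on chromosome 16, Ahsg (ENSMUSG00000022868) from 22710027 to 22718199 and Fetub (ENSMUSG00000022871) from 22737084 to 22758528. Fetub had 366 and 323 CPM in the HFD-WT pair against 425 and 534 CPM in the HFD-KO pair, so the groups did not overlap. Its log2 fold change was 0.48 (SE 0.13, 95% interval 0.18 to 0.78, adjusted p = 0.358, edgeR), and 0.30 without HFD-KO replicate 2. Ahsg had 5701 and 5772 CPM in the HFD-WT pair against 6035 and 8068 CPM in the HFD-KO pair. Only HFD-KO replicate 2 stood clearly above the rest for Ahsg, at 1.41-fold of the HFD-WT mean, while HFD-KO replicate 1 was at 1.05-fold. Its log2 fold change of 0.30 (SE 0.16, 95% interval -0.08 to 0.68, adjusted p = 0.652, edgeR) was 0.07 without HFD-KO replicate 2. Of the other tested genes of the fetuin and cystatin family, 0 of 4 had an unadjusted p under 0.05 by edgeR, and 3 of the 4 had a positive log2 fold change. Kng1, the kininogen gene with the smallest p among them, had 1411 and 1346 CPM in the HFD-WT pair against 1464 and 1678 CPM in the HFD-KO pair (log2 fold change 0.19, SE 0.11, adjusted p = 0.669, edgeR).

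Gdf15 showed a different order of libraries. It had 70.6 CPM in both HFD-WT libraries, 128 CPM in HFD-KO replicate 1 and 72.6 CPM in HFD-KO replicate 2. The difference was therefore carried by 1 library, at 1.81-fold of the HFD-WT mean against 1.03-fold for the other. That library also had the most B and plasma cell marker reads, and a link to Gdf15 was not tested. The log2 fold change of 0.51 (SE 0.23, 95% interval -0.02 to 1.04, adjusted p = 0.573, edgeR) was 0.04 without HFD-KO replicate 1. Gdf15 is ENSMUSG00000038508 on chromosome 8 from 71082043 to 71085106.

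Rbp4, Inhbe and Lect2 differed least. Rbp4 had 3195 and 2934 CPM in the HFD-WT pair against 3309 and 3245 CPM in the HFD-KO pair. Its groups did not overlap but lay close together (log2 fold change 0.10, SE 0.11, 95% interval -0.17 to 0.36, adjusted p = 0.844, edgeR). Inhbe had 124 and 133 CPM in the HFD-WT pair against 149 and 109.6 CPM in the HFD-KO pair, with both HFD-WT values between the HFD-KO values. Its log2 fold change was 0.0063 (SE 0.14, 95% interval -0.32 to 0.33, adjusted p = 0.993, edgeR), and its sign was negative with the library size alone as scaling. Lect2 was the member with a negative log2 fold change, -0.13 (SE 0.10, 95% interval -0.37 to 0.12, adjusted p = 0.758, edgeR), from 103 and 107 CPM in the HFD-WT pair against 105 and 87.3 CPM in the HFD-KO pair. That value came from 1 library: it was -0.00076 without HFD-KO replicate 2 and -0.27 without HFD-KO replicate 1. Rbp4 (ENSMUSG00000024990) lies on chromosome 19 from 38105077 to 38113729, Lect2 (ENSMUSG00000021539) on chromosome 13 from 56690277 to 56696315, and Inhbe (ENSMUSG00000047492) on chromosome 10 from 127184726 to 127190280, the chromosome of Adarb1, 49930621 bases from it. For these 3 genes the intervals allow a difference of up to 0.36, 0.33 and 0.12 upward and 0.17, 0.32 and 0.37 downward on the log2 scale.

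**Figure D2:**
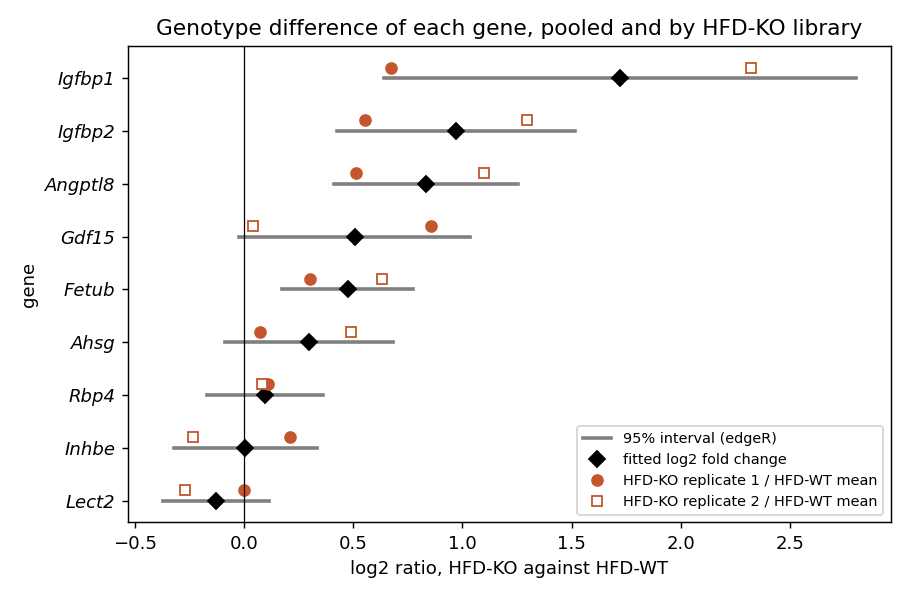
Log2 ratio of HFD-KO to HFD-WT (horizontal axis) for the 9 genes; diamonds are fitted log2 fold changes, grey lines their 95% intervals, and circles and open squares HFD-KO replicates 1 and 2 against the HFD-WT mean. The squares lie right of the circles for Igfbp1, Igfbp2, Angptl8, Fetub and Ahsg and left of them for Gdf15, Rbp4, Inhbe and Lect2, and the intervals of Igfbp1, Igfbp2, Angptl8 and Fetub do not reach 0.

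Across the members, 7 of 9 had both HFD-KO libraries above both HFD-WT libraries and 0 had both below, where 20.5% and 20.3% of all genes tested did so. The members were chosen with earlier results of these data known, so such shares describe them and are not a test. HFD-KO replicate 2 was the highest library for 5 of the 9 (Igfbp1, Igfbp2, Angptl8, Ahsg and Fetub), against 29.3% of all genes tested. Without HFD-KO replicate 2 the log2 fold changes were 0.68 for Igfbp1, 0.56 for Igfbp2, 0.51 for Angptl8, 0.86 for Gdf15 and 0.30 for Fetub. Those of Inhbe, Rbp4, Ahsg and Lect2 were then 0.21, 0.11, 0.07 and -0.00076. Without HFD-KO replicate 1 the values were 2.32 for Igfbp1, 1.29 for Igfbp2, 1.10 for Angptl8, 0.63 for Fetub and 0.49 for Ahsg. Those of Rbp4, Gdf15, Inhbe and Lect2 were then 0.08, 0.04, -0.23 and -0.27. The sign of Inhbe thus changed with the HFD-KO library that was left out. These fits hold a single HFD-KO library, which is assumed to vary as the HFD-WT libraries do. The median log2 fold change over the members was 0.30 without HFD-KO replicate 2 and 0.49 without HFD-KO replicate 1.

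Levels can be set beside each other between genes only per transcript length, for which TPM (counts per transcript length, scaled to an equal total) were used. Ahsg was the most abundant, at 7395 ± 1250.3 TPM (SD over the 4 libraries), followed by Rbp4 at 4653 ± 132 TPM, and these were the 22nd and 29th most abundant of all genes. Fetub (413 ± 85 TPM), Igfbp2 (309 ± 141 TPM), Lect2 (216 ± 22 TPM), Igfbp1 (162 ± 144 TPM), Gdf15 (90.5 ± 27.4 TPM), Angptl8 (73.7 ± 27.8 TPM) and Inhbe (47.8 ± 5.7 TPM) followed. The ranges over libraries did not overlap between Ahsg and Rbp4 or between Rbp4 and Fetub, and overlapped between every other pair of neighbours in this order. Fetub was nonetheless above Igfbp2 in 4 of 4 libraries, and Angptl8 above Inhbe in 4 of 4. The position of Igfbp1 moved with the library: it was above Lect2 in HFD-KO replicate 2 (376 against 186 TPM) and below it in the other 3. Its place above Gdf15 held in 2 of 4 libraries and rested on HFD-KO replicate 2, without which the means were 90.7 TPM for Igfbp1 and 95.1 TPM for Gdf15. The length behind the Inhbe value, 5319 bases, is that of a GENCODE model that begins 2563 bases before the RefSeq start. With the exon length from the RefSeq start, chosen after seeing the data, its level would be 92.2 TPM. That value assumes that all reads counted for Inhbe fell after the RefSeq start, which was not tested. Under that assumption Inhbe would stand above Angptl8 and Gdf15.

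**Figure D3:**
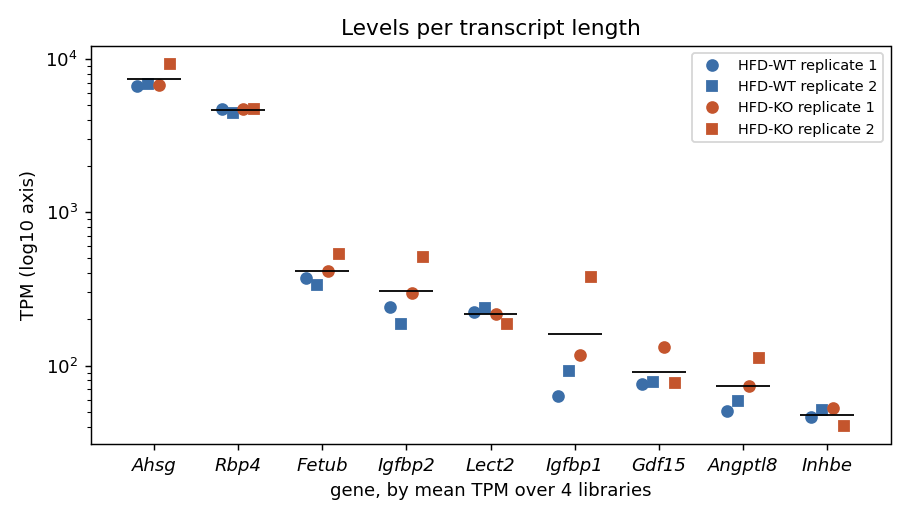
Levels of the 9 genes in TPM on a log10 axis, ordered by their mean over the 4 libraries; points are libraries and lines are means. Ahsg and Rbp4 lie at 4457 TPM or above in every library, and the other 7 genes between 40.3 and 532 TPM with overlapping neighbours.

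The members belong to systems whose other genes were compared in the same way. Outside the members, 100 genes of these lists were tested, of which 0 had an adjusted p under 0.05 by edgeR, DESeq2 or limma-voom. At an unadjusted p under 0.05 by edgeR, 15 were higher and 7 lower, against the 4.25% and 4.73% of all genes tested. The median log2 fold change of these 100 genes was 0.04. These lists too were chosen with earlier results of these data known, so the shares are a description and not a test.

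In the insulin-like growth factor system, 2 of 11 tested genes were higher and 2 lower at an unadjusted p under 0.05. Igfals, whose product stabilizes growth factor complexes in plasma, had 91.6 and 77.2 CPM in the HFD-WT pair against 101 and 109.6 CPM in the HFD-KO pair (log2 fold change 0.32, SE 0.10, adjusted p = 0.437, edgeR). The log2 fold change of Igfals was 0.20 without HFD-WT replicate 2. Igfbp3, the binding protein gene beside Igfbp1, was on the other side, at 17.3 and 22.2 CPM in the HFD-WT pair against 15.95 and 13.06 CPM in the HFD-KO pair (log2 fold change -0.44, SE 0.15, adjusted p = 0.451). Without HFD-WT replicate 2 the value for Igfbp3 was -0.25. Igfbp7, a further binding protein gene, had 81.6 and 86.2 CPM in the HFD-WT pair against 73.3 and 52.6 CPM in the HFD-KO pair (log2 fold change -0.41, SE 0.15, adjusted p = 0.475). That of Igfbp7 was -0.20 without HFD-KO replicate 2 and -0.67 without HFD-KO replicate 1. The binding protein genes thus did not share a direction. Igfbp1, Igfbp2 and Igfbp4 were above the HFD-WT range in each HFD-KO library, Igfbp3 and Igfbp7 were below it, and Igfbp5 and Igfbp6 overlapped. Igfbp4 had 1447 and 1471 CPM in the HFD-WT pair against 1594 and 1707 CPM in the HFD-KO pair. Of all genes tested, 20.5% lay above and 20.3% below in this way.

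Around Angptl8, 1 of 12 tested genes of the angiopoietin-like and lipase system was higher and 1 lower at an unadjusted p under 0.05. Lipc, the hepatic lipase gene, had 96.6 and 89.3 CPM in the HFD-WT pair against 123 and 112 CPM in the HFD-KO pair (log2 fold change 0.34, SE 0.088, adjusted p = 0.332, edgeR). Apoc2, which encodes the activator of lipoprotein lipase, had 468 and 473 CPM in the HFD-WT pair against 394 and 355 CPM in the HFD-KO pair (log2 fold change -0.33, SE 0.091, adjusted p = 0.367). Furin, a protease that cleaves angiopoietin-like proteins, came next by p with a log2 fold change of -0.13 (adjusted p = 0.710, edgeR).

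In the activin and GDF system, 3 of 13 tested genes were higher and 2 lower at an unadjusted p under 0.05. Inhba, the activin A subunit gene, had 2.21 and 1.89 CPM in the HFD-WT pair against 3.49 and 4.98 CPM in the HFD-KO pair (log2 fold change 1.04, SE 0.25, adjusted p = 0.289, edgeR). Fst, which encodes the activin antagonist follistatin, had 1.76 and 2.04 CPM in the HFD-WT pair against 3.11 and 3.06 CPM in the HFD-KO pair (log2 fold change 0.70, SE 0.23, adjusted p = 0.440). Fstl1, a follistatin-like gene, was lower, at 6.49 and 6.58 against 4.90 and 4.06 CPM (log2 fold change -0.54, SE 0.17, adjusted p = 0.417). Inhbc, 1910 bases from Inhbe, had 42.6 and 43.3 CPM in the HFD-WT pair against 53.1 and 47.5 CPM in the HFD-KO pair. The receptor genes Acvr1c, for activin E, and Gfral, for Gdf15, did not pass the filter on low counts.

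Among the genes of retinol transport and storage, 1 of 8 tested was higher and 0 lower at an unadjusted p under 0.05. Dhrs3, a retinaldehyde reductase gene, had 114 and 117 CPM in the HFD-WT pair against 148 and 137 CPM in the HFD-KO pair (log2 fold change 0.30, SE 0.081, adjusted p = 0.360, edgeR). Bco1, which encodes a carotene-cleaving enzyme, had a log2 fold change of -0.23 (adjusted p = 0.725, edgeR) and Rdh7, a retinol dehydrogenase gene, of 0.10 (adjusted p = 0.815). Ttr, the plasma partner of Rbp4, had 5416 and 4979 CPM in the HFD-WT pair against 5563 and 5017 CPM in the HFD-KO pair, groups that overlapped.

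Of the receptors that bind members or related hormones, 3 of 10 tested were higher and 0 lower at an unadjusted p under 0.05. Fgfr4 and Klb, whose products form a receptor for fibroblast growth factors, had log2 fold changes of 0.29 (SE 0.080, adjusted p = 0.369, edgeR) and 0.51 (SE 0.17, adjusted p = 0.451). Klb had 24.2 and 18.7 CPM in the HFD-WT pair against 25.8 and 35.4 CPM in the HFD-KO pair, and its log2 fold change was 0.27 without HFD-KO replicate 2. Met, the receptor gene of hepatocyte growth factor that Lect2 is known to bind, had 42.4 and 44.0 CPM in the HFD-WT pair against 47.2 and 62.3 CPM in the HFD-KO pair (log2 fold change 0.34, SE 0.13, adjusted p = 0.509). The value for Met was 0.13 without HFD-KO replicate 2 and 0.53 without HFD-KO replicate 1.

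Among the genes of transcription factors tied to the members and of the pseudokinase Trib3, 3 of 21 tested were higher and 0 lower at an unadjusted p under 0.05. Trib3, a target and inhibitor of the stress response factor ATF4, had 15.5 and 14.7 CPM in the HFD-WT pair against 17.5 and 25.9 CPM in the HFD-KO pair (log2 fold change 0.52, SE 0.17, adjusted p = 0.445, edgeR). Without HFD-KO replicate 2 the log2 fold change of Trib3 was 0.21. Atf4 had 76.1 and 72.7 CPM in the HFD-WT pair against 88.8 and 85.3 CPM in the HFD-KO pair (log2 fold change 0.23, SE 0.080, adjusted p = 0.473). Mlxipl, which encodes the glucose-responsive factor ChREBP, had 225 and 211 CPM in the HFD-WT pair against 280 and 244 CPM in the HFD-KO pair (log2 fold change 0.26, SE 0.097, adjusted p = 0.493). Without HFD-KO replicate 1 that of Mlxipl was 0.16. Foxo1, the factor through which insulin represses Igfbp1, had 52.8 and 66.3 CPM in the HFD-WT pair against 48.5 and 50.8 CPM in the HFD-KO pair. Its log2 fold change was -0.26 (adjusted p = 0.575, edgeR). RNA levels do not give the activity of the factor, and its part in the Igfbp1 result was not tested.

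Other secreted regulators of liver split evenly, with 11 of 22 tested genes positive and 11 negative, and 2 higher and 2 lower at an unadjusted p under 0.05. Enho, the adropin gene, had 3.004 and 3.199 CPM in the HFD-WT pair against 4.79 and 8.67 CPM in the HFD-KO pair (log2 fold change 1.11, SE 0.29, adjusted p = 0.332, edgeR). The value for Enho was 0.62 without HFD-KO replicate 2. Gpnmb, a glycoprotein gene that macrophages also express, was lower, at 9.98 and 15.3 against 8.36 and 4.73 CPM (log2 fold change -0.94, SE 0.29, adjusted p = 0.407). The value for Gpnmb was -0.60 without HFD-KO replicate 2 or HFD-WT replicate 2, and -1.42 without HFD-KO replicate 1. Fgf21, a hepatokine of the fasting response, had 15.9 and 22.0 CPM in the HFD-WT pair against 13.7 and 20.0 CPM in the HFD-KO pair, groups that overlapped.

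**Figure D4:**
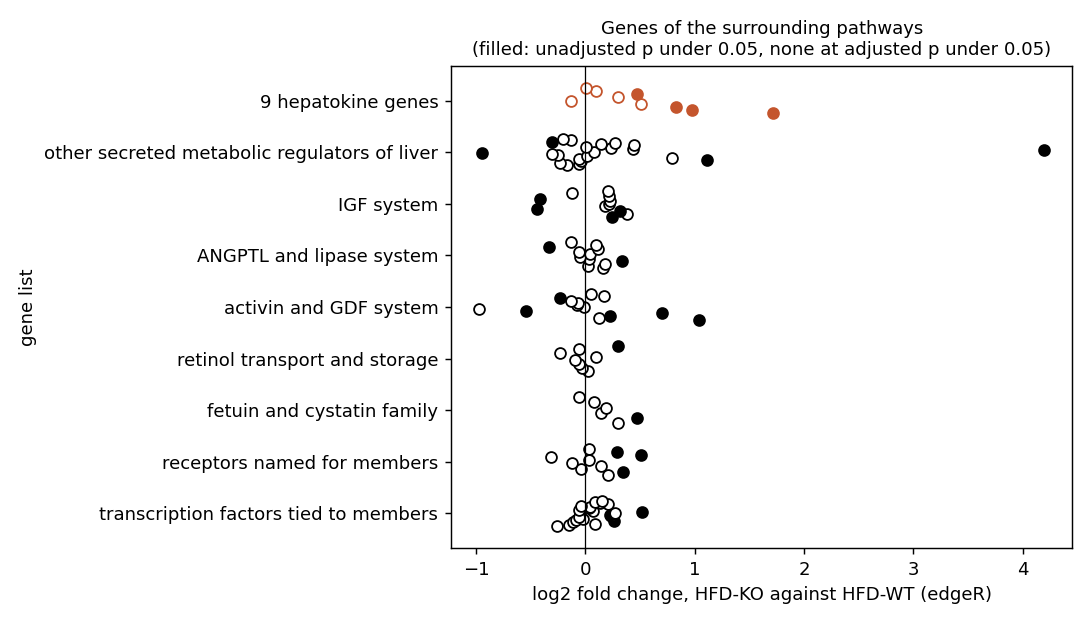
Fitted log2 fold change, HFD-KO over HFD-WT (horizontal axis), for each tested gene of the 9 members and of 8 gene lists; points are genes, filled where the unadjusted p is under 0.05, and a gene can stand in several lists. The filled members lie between 0.48 and 1.72.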

How the data were processed

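Liver RNA from 2 HFD-WT and 2 HFD-KO libraries was sequenced by the authors, who used TRIzol, a directional MGI Tech kit and paired-end reads on a DNBSEQ-G400RS. Reads were trimmed and aligned with the MGI Tech tool, and genes were quantified in Partek Genomics Suite with GENCODE annotation. The methods name mm10, the submitters' processing notes list GRCm39 and mm10, and the gene positions of the table are those of GRCm39. Tool versions and the use of strand are not given in the sources used here. The deposited counts, whole and not normalized, were the values tested. The authors' RPKM values served to derive gene lengths, with the common scale set by genes whose length equals their span. The authors' TPM values were compared with TPM computed from counts. The deposited CPM column is a score on an adjusted library size and was not used.

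Tests were run with edgeR 4.0.16 (R 4.3.3): filterByExpr by group (12967 genes kept), TMM, and the quasi-likelihood test of HFD-KO against HFD-WT, two-sided, adjusted by the Benjamini-Hochberg method over all genes tested. Standard errors and 95% intervals come from that fit, and CPM values use the TMM-adjusted library size. The common biological coefficient of variation was 0.102. Alternatives were DESeq2 1.42.0 (Wald test on the same genes without independent filtering, or its size factors in edgeR), limma 3.58.1 (voom), the library size alone, no filter, a filter of 1 CPM in 2 libraries, replicate number as a block, and each library left out in turn. The labels repeat replicate numbers across groups without saying that they mark a shared litter or batch, so the libraries were treated as unpaired. Figures were drawn with matplotlib 3.10.9.

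The members and gene lists were chosen with earlier results of these data known. Genes named are every member, Adarb1, the up to 3 genes of each pathway list with the smallest p by edgeR or any with an adjusted p under 0.05, and the 3 genes of at least 10 CPM closest to the member with the smallest p. Igfbp4, Igfbp5, Igfbp6, Inhbc, Ttr, Foxo1 and Fgf21 were named after their values were seen, as neighbours, relatives, partners or known regulators of members. Some genes that this rule names are not reported here.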

Additional observations from a re-analysis of the deposited data

How the results depend on the processing

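With 2 libraries per group, single libraries set the size of most differences. Of the members, 0 passed an adjusted p under 0.05 with edgeR, 1 with DESeq2's Wald test (Angptl8), 3 with no filter on low counts (Igfbp1, Igfbp2 and Angptl8) and between 0 and 5 when a library was left out (5 without HFD-KO replicate 1 and 4 without HFD-KO replicate 2, where the spread comes from the HFD-WT pair alone). At an unadjusted p the count of 4 changed when a library was left out, and not all members then counted were higher. Lect2 and Inhbe had log2 fold changes of -0.27 and -0.23 without HFD-KO replicate 1. The median log2 fold change of the members ranged from 0.30 to 0.50 when a library was left out. Over all genes, the 10 calls became 115 with DESeq2's Wald test, 6 with the library size alone, 162 with no filter, 6 with a filter of 1 CPM in 2 libraries and between 0 and 705 when a library was left out (0 without HFD-WT replicate 2, 705 without HFD-KO replicate 1, 411 without HFD-KO replicate 2). At an unadjusted p, the 1164 genes became 671 with DESeq2's Wald test and between 462 and 2173 when a library was left out. Of the pathway list genes, 0 passed, 2 with no filter and between 0 and 23 when a library was left out, and the 22 at an unadjusted p ranged from 7 to 36. The log2 fold change of Inhbe was -0.038 with the library size alone, -0.010 with limma-voom and -0.0090 with the replicate number as a block. It lay between -0.23 and 0.21 when a library was left out. Its level would be 92.2 TPM with the length from the RefSeq start, if all its counted reads fell within that length. Apart from these and the calls of single members with no filter, DESeq2's Wald test or a library left out, the log2 fold changes of the members kept their sign and their side of an adjusted p of 0.05. The cause of these changes was not tested.

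The replicate number as a block gave 20 genes at an adjusted p under 0.05 in place of 10, 0 members in place of 0, and a log2 fold change of -0.0090 for Inhbe. Deviations of same-numbered libraries from their group means correlated at -0.087 across genes, so the numbers do not show a pairing. At an unadjusted p under 0.05 the block gave 5 members in place of 4, the added member being Gdf15 (log2 fold change 0.45). Over all genes it gave 978 in place of 1164.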
